A study of Mus musculus with 6 samples.

Results

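The F-box genes described here are the mouse Fbxw and Fbxl genes, which encode the substrate receptors of SCF ubiquitin ligases. Members were the protein-coding genes of the count table whose symbol begins with Fbxw or Fbxl followed by a digit. This rule found 41 of 53465 genes, 23 Fbxw and 18 Fbxl. Of these, 14 Fbxw genes lie side by side on chromosome 9, and the other 27 members are spread over 14 chromosomes. Another 2 matching symbols are not protein-coding and were not counted: Fbxw23, a transcribed pseudogene inside the chromosome 9 cluster, and Fbxl12os, an antisense gene.

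RNA sequencing had been done on 6 pools of oocytes from Kun Ming mice aged 9 to 10 months. All oocytes were matured in vitro for 16 h and collected at the M II stage, 3 pools without quercetin (control) and 3 with 10 μM quercetin, a plant flavonol. Each pool mixed 15 oocytes from 3 mice, so a value describes a pool and not an animal, and both groups are aged, with no young oocytes beside them. The comparison asks which transcripts differ when aged oocytes mature with quercetin.

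An SCF ligase is built on a cullin, Cul1. The cullin holds a RING protein, Rbx1, at one end, and at the other end the adaptor Skp1 docks one F-box protein at a time. The F-box protein chooses the substrate, through WD repeats in the Fbxw group and leucine-rich repeats in the Fbxl group. In oocytes, SCF ligases are known for removing inhibitors of meiotic progression and for the turnover of maternal proteins. Genes of the tandem Fbxw cluster are known for expression in oocytes.

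The tandem cluster covers 651 kb, from base 109139447 to base 109790670 of chromosome 9 (GRCm38). All 14 genes are on the minus strand, all have 10 exons, and their coding sequences have 1392 to 1407 bases. No protein-coding gene of another family lies within the span. Coding identity between members ran from 79.2% to 99.1% (median 83.7% of 91 pairs). Outside the cluster the closest Fbxw gene was Fbxw17 on chromosome 13, which also has 10 exons but only 53.1% to 55% coding identity with the cluster.

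The first 90 coding bases are shown for the cluster genes that the levels turn on and for Fbxw17, from the GENCODE M21 transcripts. Capitals mark bases that differ from Fbxw14. Fbxw28 has 0 such differences in this stretch and is not printed.
Fbxw14: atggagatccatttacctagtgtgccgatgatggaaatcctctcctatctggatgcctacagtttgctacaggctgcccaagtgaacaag
Fbxw24: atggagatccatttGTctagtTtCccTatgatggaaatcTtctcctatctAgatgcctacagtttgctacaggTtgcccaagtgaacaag
Fbxw25: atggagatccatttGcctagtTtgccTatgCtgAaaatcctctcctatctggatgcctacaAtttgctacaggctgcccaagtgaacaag
Fbxw17: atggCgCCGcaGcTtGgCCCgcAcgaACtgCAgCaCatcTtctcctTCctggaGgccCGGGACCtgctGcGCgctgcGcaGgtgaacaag
Fbxw24 differs from Fbxw14 at 8 of the 90 bases, Fbxw25 at 6 and Fbxw17 at 33.

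The likeness of the cluster genes continues upstream of their starts. RefSeq promoters of 300 bases (GRCm38.p6) were given for 11 of the 14 cluster members and 21 of the 27 others. Each runs past the start, so its last bases lie after it. Promoter identities and word counts cover the whole 300 bases. Fbxw13, Fbxw22 and Fbxw27 had no entry. Identity between cluster promoters ran from 64.7% to 97% (median 85.6% of 55 pairs), and between a cluster promoter and that of another member from 39.4% to 50.8%. Promoters were aligned whole, and unpaired bases at their ends counted as differences. Starts annotated at unlike places in the same sequence therefore lower the identity. The 120 bases just before the start are shown for 3 genes with high transcript levels (Fbxw14, Fbxw28, Fbxw24) and 2 with low levels (Fbxw25, Fbxw26). They are read on the minus strand at chr9:109287677-109287796, chr9:109339660-109339779, chr9:109626060-109626179, chr9:109664653-109664772 and chr9:109746090-109746209, in that order. Capitals mark the word CAGCTG, the word TTTAAA and also the word AATCC.
Fbxw14: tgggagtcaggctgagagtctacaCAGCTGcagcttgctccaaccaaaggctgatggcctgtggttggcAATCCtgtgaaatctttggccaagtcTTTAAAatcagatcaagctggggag
Fbxw28: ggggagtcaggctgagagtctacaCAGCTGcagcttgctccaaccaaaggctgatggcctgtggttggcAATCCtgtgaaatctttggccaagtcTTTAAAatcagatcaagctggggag
Fbxw24: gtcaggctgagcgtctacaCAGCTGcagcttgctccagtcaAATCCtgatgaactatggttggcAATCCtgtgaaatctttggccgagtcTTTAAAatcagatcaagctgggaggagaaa
Fbxw25: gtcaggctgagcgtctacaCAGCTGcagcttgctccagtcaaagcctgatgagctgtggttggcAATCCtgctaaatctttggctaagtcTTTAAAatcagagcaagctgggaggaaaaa
Fbxw26: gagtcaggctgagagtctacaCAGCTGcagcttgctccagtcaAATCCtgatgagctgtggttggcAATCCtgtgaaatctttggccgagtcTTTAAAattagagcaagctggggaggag

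These letters were searched on both strands of the 300 bases, after the cluster promoters had been seen. The cluster promoters resemble each other, at a median identity of 85.6%, so they are not independent of each other in these counts. CAGCTG, a form of the E-box that basic helix-loop-helix factors bind, stood in 11 of 11 cluster promoters, 4 of 21 promoters of other members and 16.3% of all 32851 promoters in the table. TTTAAA stood in 10 of 11, 3 of 21 and 13.2%. AATCC stood in 11 of 11, 7 of 21 and 35.5%, and the longer TAATCC, which contains it, in 1 of 11, 0 of 21 and 7.06%. TATAAA stood in 0 of 11, 0 of 21 and 13.6%. The longest word common to all 11 cluster promoters had 12 bases, GACTTAGGCCAC, and stood in 12 of the 32851 promoters. This word is absent from the stretches before the start that are printed above. All 12 entries belong to these 11 genes, since a gene can have more than 1 entry.

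Pools held 7880467 to 9938743 counts. Of the family, 34 members passed the filter on low counts and were tested, the 14 of the cluster and 20 of the others. The labelled cell type was checked with marker genes. All 12 oocyte markers were present, at 1045 counts or more in each pool, with Gdf9 at a mean of 3074 FPKM (the level per exon length). Of the 12, only Ooep had an unadjusted p under 0.05 (0.0412, adjusted 0.988, by edgeR's quasi-likelihood test). Its log2 fold change was -0.92, and its groups overlapped. Zp2 varied widely within groups, at 1990, 12980 and 5601 counts without quercetin and 1045, 7734 and 11260 with it. Of 15 cumulus and granulosa cell markers, 4 passed the filter, Cyp19a1, Kitl, Has2 and Ptgs2, and Amh and Foxl2 were at 0 in all 6 pools. Cyp19a1 and Kitl were higher in every quercetin pool than in any control pool, with log2 fold changes of 0.22 and 0.59. Kitl had an unadjusted p of 0.0209 and an adjusted p of 0.988 by edgeR's quasi-likelihood test. The groups of Has2 and Ptgs2 overlapped. CPM are counts scaled to library size and by TMM, a correction for differences in composition between pools. The summed CPM of the 15 was 70.9 to 87.2 without quercetin and 92.8 to 98.1 with it. Most of it came from Cyp19a1, the aromatase gene. Without Cyp19a1 the ranges were 12.5 to 19.8 and 19.7 to 22.8. The 15-gene sum was thus higher in all quercetin pools, and the part of these cells in the results below was not tested.

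The chromosome 9 cluster carried about 2% of all counts of an oocyte pool. Its 14 genes held 2.009%, 2.072% and 2.05% of counts in control pools 1, 2 and 3. In quercetin pools 1, 2 and 3 they held 2.2%, 2.312% and 2.181%. The 3 quercetin pools lay above the 3 control pools, as did their summed cumulus and granulosa markers. That marker sum came mostly from Cyp19a1, and without Cyp19a1 the groups overlapped slightly. The mean shares of the cluster were 2.04% ± 0.032 and 2.23% ± 0.071 (SD, n = 3 each), a log2 ratio of 0.13. No test was made on this sum over members. With the pools scaled by TMM, which corrects for differences in composition, the log2 ratio was 0.21. A share of RNA in a pool cannot tell more transcript per oocyte from a different mixture of oocytes. The 27 other members together held 0.0916% to 0.103% of counts, so each of their counts faced 20.4 to 23.8 counts of the cluster.

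Fbxw24 stood highest per exon length, at 2882 FPKM on average, rank 18 among 21942 protein-coding genes. Its FPKM was above that of Fbxw14 in 6 of 6 pools, with a median ratio of 1.26. This order rests on annotated exon length, 1488 bases for Fbxw24 and 2114 for Fbxw14. Before division by length, in CPM, Fbxw14 ranked 17, Fbxw28 22 and Fbxw24 24. Fbxw14 at 2255 FPKM (rank 29) and Fbxw28 at 2210 FPKM (rank 30) could not be put in order, since Fbxw14 was higher in 4 of 6 pools, at ratios from 0.96 to 1.07. These 3 genes held 61% to 62.7% of the cluster's counts. Fbxw22 at 1010 FPKM, Fbxw18 at 910 FPKM and Fbxw19 at 728 FPKM were also among the 100 highest protein-coding genes. In CPM Fbxw19, with 3487 exon bases, ranked 54, above Fbxw22 at 69 and Fbxw18 at 95. Fbxw16, Fbxw15 and Fbxw20 followed at 413, 302 and 256 FPKM. Fbxw27 had 103 FPKM, Fbxw25 69 FPKM, Fbxw26 56.1 FPKM, Fbxw21 49.5 FPKM and Fbxw13 23.5 FPKM. From the highest to the lowest, mean levels differed 122-fold inside the one cluster.

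Closely related neighbours could differ widely in level. The genes at both ends of the array were low, Fbxw21 and Fbxw13 at the low-coordinate end and Fbxw26 and Fbxw27 at the other. Between them levels ran from the 69 FPKM of Fbxw25 to the 2882 FPKM of Fbxw24. Fbxw24 and Fbxw25 are direct neighbours with 88.6% coding and 91.3% promoter identity, and all 3 marked words stand in both printed promoters, yet Fbxw24 was 37.4 to 44.6 times higher in FPKM in every pool. Fbxw18 was 10.1 to 25.6 times higher than its neighbour Fbxw26, at 85.5% promoter identity. Fbxw14 and Fbxw28, with 99.1% coding and 97% promoter identity, were the neighbours with the most similar level.

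**Figure D1:**
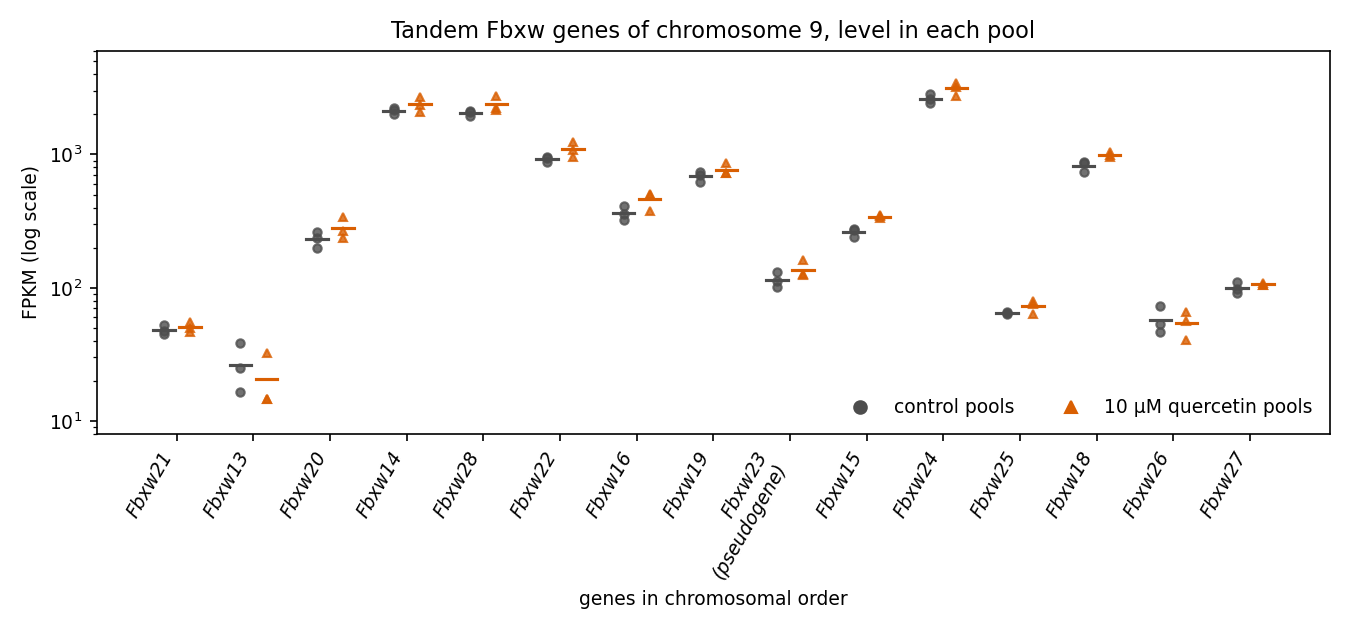
Level of the 14 cluster genes and the pseudogene Fbxw23 in FPKM on a log scale, in chromosomal order, with a point for each of 3 control pools (circles) and 3 quercetin pools (triangles) and a bar at each group mean. Levels run from 23.5 FPKM for Fbxw13 to 2882 FPKM for Fbxw24, and the groups lie close together at each gene.

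The sequence likeness limits how well reads can be divided among these genes, since how reads that match several genes were counted is not given in the sources used here. Of the 31-base words in the exons of a cluster gene, 15.2% to 74.1% also occurred in another annotated gene (median 22.7%), against a median of 2% for the other members. Fbxw28 shared 72.3% of its words with Fbxw14, and Fbxw14 66.9% with Fbxw28. The level of each is therefore less certain than their sum, of which Fbxw14 took 51% to 53.7%. Fbxw24 and Fbxw25 each shared 9.9% of their words with the other. The pseudogene Fbxw23, which shares words mainly with Fbxw16, stood at 126 FPKM, above 5 of the 14 coding members.

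**Figure D2:**
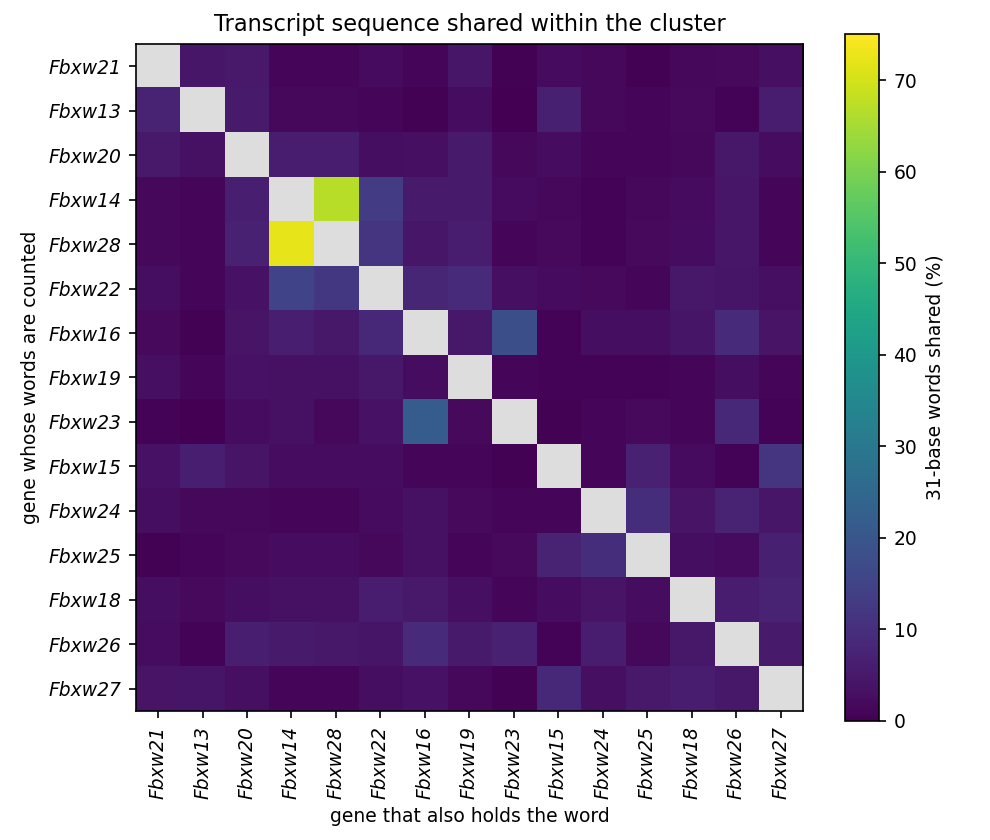
Percent of the 31-base words in the exons of each cluster gene (rows) that also occur in another gene of the cluster (columns), in chromosomal order, on a colour scale from 0 to 75%. Fbxw14 and Fbxw28 stand out, with 66.9% and 72.3% of their words in each other.

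The 27 members outside the cluster include F-box receptors known from many tissues, and most of the 27 were scarce in these oocytes. Their median level was 1.15 FPKM, against 357 FPKM in the cluster, and 12 of them were under 1 FPKM. In FPKM, only Fbxl6 (89.2), Fbxw4 (64.5) and Fbxl5 (25.4) were above the lowest cluster gene, Fbxw13. In the same measure, 10 cluster genes were above Fbxl6. These orders rest in part on annotated exon length, with a median of 4444 bases against 1829.5 in the cluster. Before division by length, in CPM, others ranked above Fbxw13 (3189) too, among them Fbxl20 at 1477, Fbxl4 at 3134 and Fbxl2 at 3181.

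Fbxl6 had 182, 168 and 238 CPM without quercetin, against 224, 186 and 164 CPM with it, so the groups overlapped. Fbxw4, known for its link to limb development as dactylin, had 212, 184 and 248 CPM and then 211, 202 and 165 CPM, again overlapping. Without strand information, 21.4% of the Fbxw4 exon length cannot be told from Gm17018 on the other strand, which had 1040 to 1635 counts per pool. Fbxl4, a mitochondrial protein that restrains mitophagy, stood at 9.6 FPKM, Fbxl20 at 9.08 FPKM and Fbxl2 at 8.06 FPKM. Fbxl21 stood at 1.15 FPKM.

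Fbxw7, which targets cyclin E and Myc, had 4.88 FPKM and 250 to 389 counts. Fbxw11, one of the β-TrCP pair that targets β-catenin and the inhibitor of the anaphase-promoting complex Emi1, had 3.12 FPKM. Fbxl12 had 2.21 FPKM, with 37.1% of its exon length opposite the abundant Ubl5. Fbxl19, Fbxl22, Fbxw5 and Fbxl7 had 1.6, 1.45, 1.23 and 1.12 FPKM. Below 1 FPKM but tested were Fbxl14, Fbxw8, Fbxl17, Fbxw2 and Fbxl13.

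The 7 members under the filter on low counts were Fbxl15, Fbxw17, Fbxw9, Fbxl8, Fbxl18, Fbxw10 and Fbxl16, each at 15 counts or fewer in every pool. Fbxl16 had 0 counts in all 6 pools, which allows up to 3 counts, or 0.302 to 0.381 CPM by pool when scaled by library size alone. This limit covers counting error only. Fbxw17, whose gene has the exon number of the cluster genes but lies on another chromosome, had 3 to 15 counts.

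**Figure D3:**
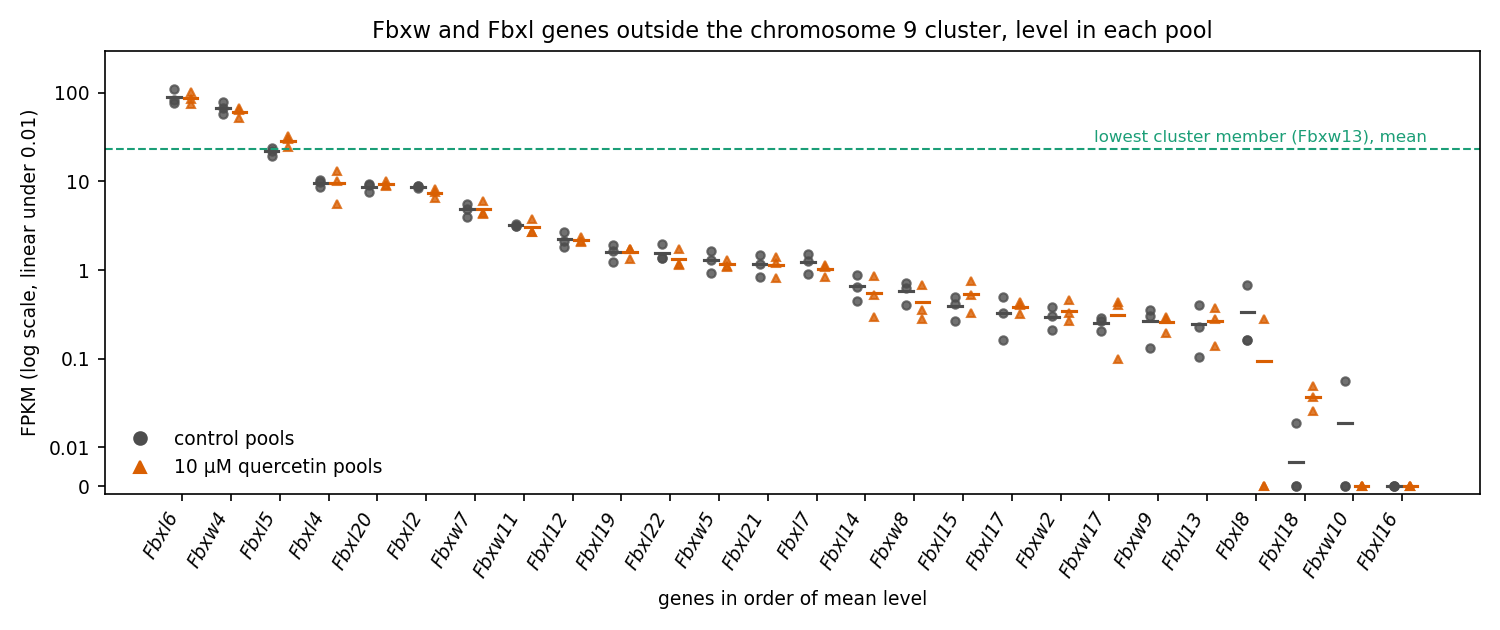
Level of 26 members outside the cluster in FPKM, on a log scale that is linear under 0.01, ordered by mean, with a point for each of 3 control pools (circles) and 3 quercetin pools (triangles) and a bar at each group mean. The dashed line is the mean of Fbxw13, the lowest cluster gene, at 23.5 FPKM; only Fbxl6, Fbxw4 and Fbxl5 have a mean above it.

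No member of the family passed the criteria for a change with quercetin, an adjusted p under 0.05 and a fold over 2 by edgeR's quasi-likelihood test. Across all tested genes 0 of 11842 passed (0%), and the lowest adjusted p was 0.073. The lowest adjusted p of a member was 0.988. At an unadjusted p under 0.05 there were 3 members of 34 (8.82%), among them Fbxw15 and Fbxl5, against 4.03% of all tested genes. DESeq2, the likelihood ratio test of edgeR and limma-voom also passed 0 members, and gave the same 3 symbols at an unadjusted p under 0.05.

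Among the cluster genes, 12 log2 fold changes were above 0 and 2 below, with a median of 0.20 and a range from -0.37 to 0.38. All tested genes had a median of -0.03. With a pool left out, the cluster median ran from 0.126 (without quercetin pool 2) to 0.275 (without quercetin pool 3), and scaled by library size alone it was 0.105, with all genes at -0.111. The quercetin pools lay wholly above the control pools for 3 of 14 cluster genes, Fbxw15, Fbxw18 and Fbxw28, and wholly below for 0. Among all tested genes 5.42% lay wholly above and 5.17% wholly below. The 14 genes share sequence and how shared reads were counted is not given, so their counts may not be independent.

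Fbxw15 had the smallest unadjusted p of the family. Its TMM-scaled CPM was 361, 403 and 411 in control pools 1 to 3, against 495, 522 and 514 with quercetin. The groups did not overlap. The log2 fold change was 0.38 ± 0.13 (SE), with an unadjusted p of 0.0147 and an adjusted p of 0.988 by edgeR. The exact two-sided permutation test gave p = 0.1, the smallest that 3 pools against 3 allow. An antisense gene, Gm42756, lies opposite 11.2% of its exon length and had 0 to 44 counts.

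Fbxw18 had 1323, 1125 and 1315 CPM without quercetin, against 1581, 1507 and 1447 CPM with it. Here too the groups did not overlap, and the log2 fold change was 0.27 ± 0.13. Fbxw28 had 3778, 4098 and 4099 CPM and then 4322, 5341 and 4231 CPM, with the groups again apart by a small margin and a log2 fold change of 0.21 ± 0.15, which was 0.10 without quercetin pool 2. Scaled by library size alone, Fbxw22 took the place of Fbxw28 among the genes whose groups did not overlap.

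Fbxw14 had 4256, 4556 and 4717 CPM against 5009, 5663 and 4400 CPM. Quercetin pool 3 fell within the control range. Fbxw24 had 4218, 3625 and 3878 CPM and then 5137, 4798 and 4073 CPM, with pool 3 again inside the control range. Their log2 fold changes were 0.16 ± 0.15 and 0.26 ± 0.15, and neither passed at an unadjusted p of 0.05.

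Fbxw22 had 1599, 1715 and 1767 CPM against 1984, 2286 and 1767 CPM. Fbxw16 had 739, 584 and 643 CPM against 916, 899 and 683 CPM. In both genes quercetin pools 1 and 2 were above all control pools and pool 3 was not. Their log2 fold changes were 0.25 ± 0.14 and 0.35 ± 0.16. A gene of unsettled type, Gm42494, lies opposite 11.7% of the Fbxw16 exon length and had 351 to 583 counts. Fbxw20 had 633, 482 and 575 CPM against 822, 645 and 571 CPM, with quercetin pool 3 below 2 of the control pools and a log2 fold change of 0.27 ± 0.18.

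The remaining cluster genes had small differences or wide spreads. Fbxw19 had 2155, 2447 and 2579 CPM against 2533, 2991 and 2530 CPM. Fbxw25 had 94.6, 97 and 97.9 CPM against 120, 113 and 94.5 CPM. Quercetin pools 1 and 3 fell inside the control range of Fbxw19, and pool 3 fell just below that of Fbxw25. Fbxw27 had 171, 182 and 207 CPM against 197, 196 and 203 CPM. Fbxw21 had 110, 129 and 115 CPM against 115, 122 and 136 CPM. The groups of these genes overlapped, and the log2 fold changes of Fbxw19, Fbxw25, Fbxw27 and Fbxw21 were 0.17 ± 0.14, 0.18 ± 0.15, 0.09 ± 0.14 and 0.07 ± 0.14. Fbxw26 had 85.2, 134 and 96.9 CPM against 74.2, 103 and 120 CPM, a log2 fold change of -0.09 ± 0.23. Fbxw13 had 24.9, 57.8 and 37.8 CPM against 22.2, 22.3 and 48.6 CPM, a log2 fold change of -0.37 ± 0.39 with a 95% interval from -1.24 to 0.50. The value was -0.02 without control pool 2 and -0.85 without quercetin pool 3.

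Pools within a group also differed from each other. Fbxw13 and Fbxw26 were highest in control pool 2, next highest in quercetin pool 3 and lowest in quercetin pool 1. Fbxw16, Fbxw18, Fbxw20 and Fbxw24 were lowest in control pool 2 and highest in quercetin pool 1. Control pool 2 and quercetin pool 3 also lay together on the first principal component of all tested genes (33.5% of variance), at 26.4 and 25.6, opposite quercetin pools 1 and 2 at -30.7 and -25.8. Without quercetin pool 3, 8 members had an unadjusted p under 0.05 by edgeR. Fbxw13, Fbxw15, Fbxw16, Fbxw18, Fbxw22, Fbxw24 and Fbxl5 were among them. The share among all tested genes was then 12.8%, and 0 members passed the criteria. Without control pool 2, or without quercetin pool 1 or 2, only Fbxw15 was under 0.05. Without control pool 1 it was Fbxw16 and Fbxl5, and without control pool 3 Fbxw15 was under 0.05 and Fbxl5 was not.

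**Figure D4:**
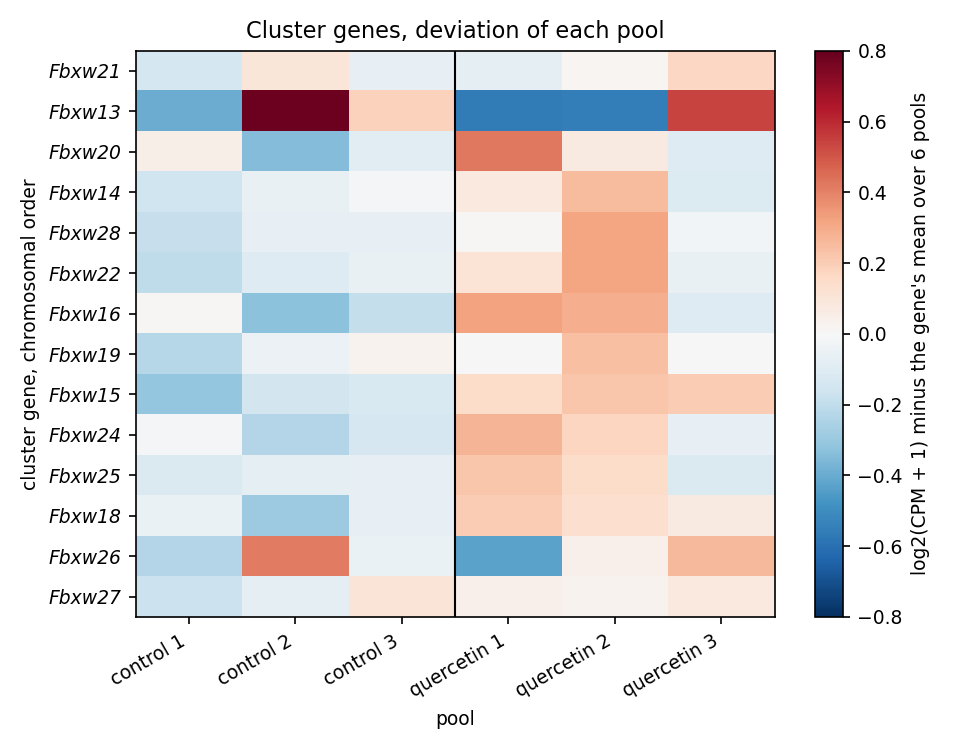
Deviation of each pool from the mean of the 6 pools for each cluster gene, in log2(CPM + 1), red above and blue below, with genes in chromosomal order and a line between control and quercetin pools. Fbxw13 and Fbxw26 are above their mean in control pool 2 (0.79 and 0.42) and quercetin pool 3 (0.54 and 0.26), where Fbxw16, Fbxw20 and Fbxw24 are below theirs.

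Outside the cluster, 9 tested members had a log2 fold change above 0 and 11 below, with a median of -0.02. The groups did not overlap for 3 of the 20, 2 of them higher with quercetin, Fbxl5 included, and Fbxl2 lower, beside the 5.42% and 5.17% of all genes given above.

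Fbxl5, which senses iron through a hemerythrin domain and targets the iron regulatory protein Ireb2, had 234, 213 and 191 CPM against 294, 314 and 238 CPM. The lowest quercetin pool was only just above the highest control pool. The log2 fold change was 0.41 ± 0.16, with an unadjusted p of 0.0279 and an adjusted p of 0.988 by edgeR, and an exact permutation p of 0.1.

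Fbxl2 had 39.4, 39.1 and 37.5 CPM against 36.7, 33.7 and 28.6 CPM. All quercetin pools were lower, yet the log2 fold change was only -0.23 ± 0.18, and 11.2% of its exon length lies opposite Ubp1, at 180 to 281 counts. Fbxl4 had 32.7, 39.6 and 37.2 CPM against 38.5, 50 and 21 CPM. Its quercetin pools spanned a wider range than its control pools, with a log2 fold change of 0.00 ± 0.29.

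The lowest fold changes outside the cluster were those of Fbxw8, a partner of the cullin Cul7, and Fbxl7. Fbxw8 had 35, 29 and 20 counts against 30, 18 and 13 counts, giving -0.42 ± 0.42, and 33.4% of its exon length lies opposite Gm9754. Fbxl7 had 74, 49 and 87 counts against 56, 50 and 64 counts, at -0.26 ± 0.28. Fbxl20 had 115, 93.2 and 110 CPM against 123, 109 and 110 CPM, with overlapping groups. Fbxw4, Fbxl6 and Fbxl20 had log2 fold changes of -0.15 ± 0.16, -0.04 ± 0.18 and 0.10 ± 0.15. At these depths the 95% intervals of the other members reached from -1.36 to 1.41 on the log2 scale, so changes of 2-fold in the scarcest genes were not detectable.

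**Figure D5:**
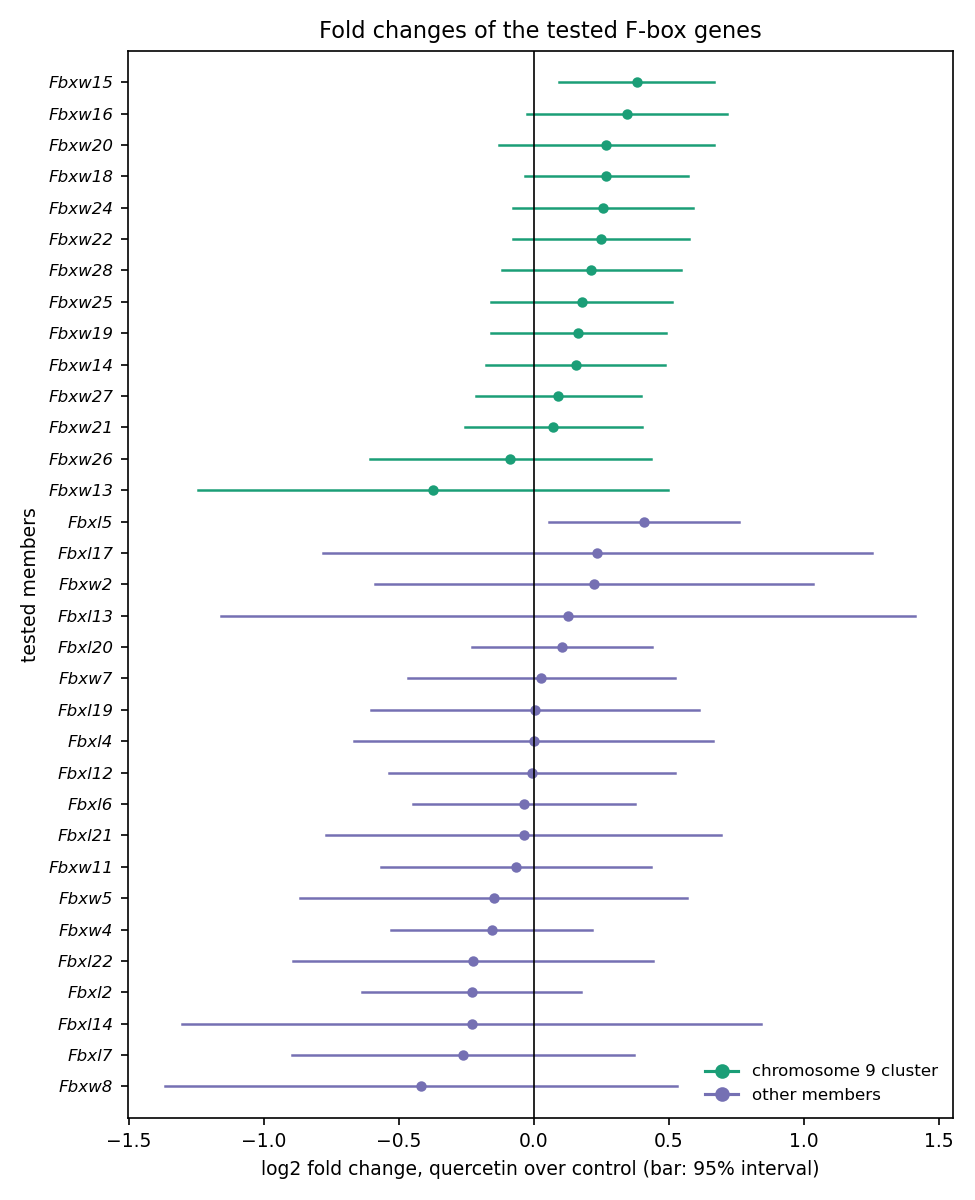
Log2 fold change of quercetin over control for 33 of the tested members, 14 of the cluster (green) and 19 others (purple), each with its 95% interval from the edgeR fit. The intervals of Fbxw15 and Fbxl5 lie above 0, 12 of the 14 cluster points are above 0, and the other members are spread on both sides.

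The partners that turn an F-box protein into a ligase were followed through a list of 40 genes, the SCF subunits, the NEDD8 system that activates cullins, the COP9 signalosome that removes NEDD8, ubiquitin-conjugating enzymes, and 4 F-box genes under other names. All 40 passed the filter, 23 had a log2 fold change above 0 and 17 below, the median was 0.01, and 0 passed the criteria by edgeR. At an unadjusted p under 0.05 there were 2, Uba3 and Senp8, beside 4.03% of all tested genes. The core subunits were abundant. Cul1 stood at 756 FPKM with a log2 fold change of 0.21 ± 0.15, Skp1 at 436 FPKM with -0.14 ± 0.19, and Rbx1 at 108 FPKM with -0.07 ± 0.18.

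Uba3, a subunit of the enzyme that activates NEDD8, had a log2 fold change of 0.47 ± 0.17 at 72.4 FPKM, and its groups overlapped. Senp8, which processes NEDD8, had 0.55 ± 0.20 at 12.5 FPKM, and its quercetin pools lay above its control pools in TMM-scaled CPM but overlapped them when scaled by library size alone. The 9 COP9 signalosome genes stood at 0.345 to 60.6 FPKM, and 0 of them had an unadjusted p under 0.05 by edgeR.

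The 4 F-box genes with other names were scarce too. Btrc, the other β-TrCP gene, stood at 1.15 FPKM with a log2 fold change of 0.15 ± 0.25, and Skp2, which targets the cell-cycle inhibitor Cdkn1b, at 3.05 FPKM with 0.00 ± 0.20. The F-box histone demethylases Kdm2a and Kdm2b stood at 0.529 and 3.63 FPKM, with -0.30 ± 0.29 and -0.18 ± 0.21.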

How the data were processed

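RNA sequencing of 6 pools was analysed, 3 control and 3 quercetin. The deposited file holds counts, the reads on each of 53465 Ensembl genes per pool, neither normalized nor pooled by the authors. The study's methods name Smart-seq HT libraries and Hisat2 on GRCm38, Ensembl release 91, whereas the submitters' processing notes list CASAVA 1.8 and TopHat2 2.0.6. The counting program and its settings for strand and shared reads are not given in the sources used here, so overlapping genes and near-identical copies are uncertain. Symbols came from the Ensembl identifiers, which matched 53274, and gene models from GENCODE M21 on GRCm38.

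Total counts were 7880467 to 9938743 per pool, and 3 counts, the floor, were 0.302 to 0.381 CPM by library size alone. Genes passing filterByExpr (minimum count 10) were scaled by TMM and tested with the quasi-likelihood test of edgeR 4.0.16 in R 4.3.3, with no covariate, and p-values were adjusted by Benjamini-Hochberg over all 11842 tested genes. The standard error is the log2 fold change divided by the square root of F. FPKM is TMM-scaled CPM per kilobase of merged exon length. For single genes, scipy 1.17.1 gave an exact permutation p (two-sided) from log2(CPM + 1). No label says whether pools came from separate cultures, so p-values measure the spread between these pools, which may be partly technical. Same-numbered pools were not treated as pairs.

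Sequences were aligned globally with biopython 1.88 (match 1, mismatch -1, gap opening -3, gap extension -0.5). Alternatives were DESeq2 1.42.0, limma-voom 3.58.1, the edgeR likelihood ratio test, other scalings and filters, a replicate block, and each pool left out.

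All members may be named. Given in full were each cluster gene, the 6 highest others by FPKM, members at an unadjusted p under 0.05, and the 3 highest and 3 lowest fold changes, with main SCF subunits. The members and lists were chosen with earlier results of these data known. Gm42756, Gm42494, Gm17018, Gm9754, Ubl5 and Ubp1 were named for their overlap, and Fbxl2 and others by level. A member that the rule selects is not reported here.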

Additional observations from a re-analysis of the deposited data

How the results depend on the processing

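No member passed the criteria under any alternative run. Over all genes the count of 0 became 3 without a filter beyond 1 count in total, 11 with DESeq2, 16 with the edgeR likelihood ratio test, and 0 to 7 with a pool left out. The count of 3 members at an unadjusted p under 0.05 ran from 1 to 8 with a pool left out. Without the member with the most counts, the share of the cluster was 1.581% in control and 1.747% in quercetin pools. Of 434 alternative values of 31 named genes, 417 kept their direction and side of the threshold and 17 in 7 genes reversed. By library size only, Fbxw21 was at -0.007, Fbxl4 at -0.111 and Skp2 at -0.073. Fbxl4 was at -0.08 with limma-voom and at -0.076 with the replicate block. With a pool left out, Fbxl4 ran from -0.294 to 0.281, Skp2 from -0.09 to 0.111, Fbxw26 from -0.246 to 0.127, Fbxl6 from -0.164 to 0.136, Rbx1 from -0.225 to 0.097 and Btrc from -0.063 to 0.341. The cause was not tested. With a pool left out, Fbxw13 ran from -0.852 to -0.015, Fbxw8 from -0.869 to -0.174, Fbxw14 from 0.063 to 0.245, Fbxw20 from 0.11 to 0.381, Fbxw28 from 0.101 to 0.277 and Fbxw22 from 0.149 to 0.336. Scaling by library size only moved the median of all genes to -0.11, and the cluster median to 0.11. With the replicate block 0 genes and 0 members passed, and 3 members had an unadjusted p under 0.05. For each tested gene, the deviation of a pool from its group mean was taken in log2(CPM + 1). Over all tested genes these deviations correlated between same-numbered pools at 0.314, 0.0844 and -0.0336, so the numbers were not used as pairs. The 7 members under the filter were too shallow for a comparison.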
